A study of Mus musculus with 12 samples.

Results

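The enzymes that modify collagen chains and crosslink the finished fibres were followed in whole mammary glands of 12 mice. The list held 10 genes, namely the lysyl hydroxylases Plod1, Plod2 and Plod3, the prolyl 4-hydroxylase alpha subunits P4ha1, P4ha2 and P4ha3, and the lysyl oxidases Lox, Loxl1, Loxl2 and Loxl4. Members were the array probe sets that the platform annotation assigns to a listed gene, and the list was selected on a measured value, the strong rise of Plod2 under estradiol in wildtype mice. Of the 10 genes, 9 were measured by 16 probe sets assigned to that gene alone, among 18193 genes and 45101 probe sets in all. Both Loxl2 probe sets are also assigned to Gm21451, so Loxl2 has no value of its own here. Where a gene had several probe sets, the one with the highest mean over the 12 arrays stood for the gene.

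All mice were virgin C57BL/6 females from which the ovaries had been removed. They were either Ccnd1+/+ (wildtype) or Ccnd1-/- (knockout, without cyclin D1, a cell cycle protein), and received a placebo pellet or a pellet of estradiol (0.72 mg, released over 60 days) for 7 days. Each of the 4 groups held 3 separate animals, 1 array per animal; ages, the gland sampled and the cells in which Ccnd1 was lost are not given in the sources used here. Values are log2 intensities, so a difference of 1 is a doubling, and levels are compared only within a probe set.

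Collagen chains are hydroxylated on proline and lysine inside the cell, before they fold into a triple helix. Prolyl 4-hydroxylation makes the helix stable at body temperature, and the alpha subunits that carry it out work in a complex with P4hb. Lysyl hydroxylation sets which crosslinks can form later, with Plod2 acting on the lysines of the collagen telopeptides. Outside the cell the copper-dependent lysyl oxidases turn lysines into reactive aldehydes, which join collagen and elastin molecules to each other. In the mammary gland these enzymes come largely from stromal fibroblasts, and Plod2 and the prolyl 4-hydroxylases are also known as genes induced by low oxygen.

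The targeted gene followed the labels. Ccnd1 lay between 7.24 and 7.68 in the 6 knockout arrays and between 8.50 and 10.8 in the 6 wildtype arrays, a mean difference of -1.93 (exact two-sided permutation test, p = 0.00216, the smallest that 924 arrangements can give). The arrays also differed in ways that the groups do not set. Over 10 lymphocyte markers, the mean deviation from each gene's own mean was -2.24 in wildtype placebo array 3 and -2.12 in knockout placebo array 2, against 1.90 to 2.50 in the other 4 placebo arrays. Among the estradiol arrays it was -2.48 to -2.34 in wildtype arrays 1 and 3 and knockout array 1, and 0.41 to 1.67 in the remaining 3. Skeletal muscle markers ranged from -3.74 to 3.53. Several counts of called genes are therefore also given with either or both of these lymphocyte-poor placebo arrays left out, for the enzymes and the gene lists read beside them. In whole glands, fewer cells of a type and less RNA per cell cannot be told apart.

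The promoters of the prolyl 4-hydroxylase subunits are shown because the 3 genes of this family differed in their values under estradiol and because the hypoxia-inducible factors bind the core letters ACGTG or GCGTG. The stretches are RefSeq sequence of build GRCm38.p6, all on the plus strand, and end at the gene's outermost annotated start. Capitals mark either core on either strand. P4ha1 is at chr10:59323046-59323196, P4ha2 at chr11:54100674-54100923 and P4ha3 at chr7:100285270-100285488.
P4ha1: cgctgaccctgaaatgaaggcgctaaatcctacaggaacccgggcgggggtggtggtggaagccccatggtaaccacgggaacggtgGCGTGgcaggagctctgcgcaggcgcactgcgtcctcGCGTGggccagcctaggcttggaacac
P4ha2: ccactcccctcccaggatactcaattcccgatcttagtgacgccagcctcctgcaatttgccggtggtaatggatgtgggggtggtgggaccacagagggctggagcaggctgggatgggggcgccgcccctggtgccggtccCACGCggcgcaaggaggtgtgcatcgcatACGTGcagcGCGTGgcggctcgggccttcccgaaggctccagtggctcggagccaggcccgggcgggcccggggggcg
P4ha3: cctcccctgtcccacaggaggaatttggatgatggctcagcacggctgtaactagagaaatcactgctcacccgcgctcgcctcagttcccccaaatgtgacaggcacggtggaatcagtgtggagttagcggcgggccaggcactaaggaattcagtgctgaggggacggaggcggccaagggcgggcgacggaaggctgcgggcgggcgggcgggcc
Matches were counted in the 250 bases before each promoter entry's own start, which can lie after the gene's outermost annotated start. There, P4ha1 and P4ha2 each held 1 ACGTG and 2 GCGTG. The ACGTG of P4ha1 lies 16 bases before its promoter entry's start. That is after the outermost annotated start at which the printed stretch ends. P4ha3 held neither. Over 32851 promoter windows of the same length, 16.6% held ACGTG and 28.2% held GCGTG on either strand. Sequence was at hand for 6 of the 9 measured members, and among the others Plod3 held 1 ACGTG and 3 GCGTG, and Plod1 and Loxl4 held 1 GCGTG each. None of the 6 held the estrogen receptor's palindrome (GGTCA, 3 bases of any kind, TGACC), which was present in 0.0639% of windows. One arm of it, GGTCA, occurred in 1 of them, P4ha1, and in 35.2% of windows. These matches are letters in a window and say nothing about whether a factor was bound.

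Among the lysyl hydroxylases, Plod2 had the widest range. In wildtype mice its log2 intensity was 5.51, 5.69 and 6.89 on placebo and 9.69, 9.89 and 9.73 on estradiol. The groups were far apart, and the 3 estradiol arrays had an SD of 0.10. The difference that chose the list was 3.74 ± 0.50 (SE, n = 3 against 3), a 13.4-fold higher mean and rank 9 of 18193 genes. In knockout mice the values were 6.84, 6.81 and 6.10 on placebo and 10.31, 9.77 and 8.30 on estradiol. Every knockout estradiol array was above every knockout placebo array, but array 3 of the estradiol group lay well below the other two. The knockout difference was 2.88 ± 0.50 (SE, 95% interval 1.77 to 3.98), 7.36-fold and rank 7 of 18193. It missed the threshold of limma's test after Benjamini-Hochberg adjustment over all genes (adjusted p = 0.0996, threshold 0.05). Without knockout estradiol array 3 it was 3.46 with an adjusted p of 0.0207. A separate Plod2 probe set gave 3.61 in wildtype and 2.53 in knockout mice.

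Plod1 and Plod3, which hydroxylate lysines in the helical part of the chain and, for Plod3, also add sugars to them, differed less. Plod1 was at 8.19, 8.39 and 9.58 on placebo and 9.47, 9.14 and 9.68 on estradiol in wildtype mice, and at 8.52, 8.79 and 8.33 against 9.49, 8.67 and 8.75 in knockout mice. Wildtype placebo array 3 sat among the estradiol arrays, and the groups overlapped in both genotypes. Its differences were 0.71 ± 0.35 in wildtype and 0.42 ± 0.35 in knockout mice. Plod3 was at 9.14, 9.22 and 10.16 against 9.98, 9.77 and 9.96 in wildtype mice, where the same placebo array was the highest of all, and its differences were 0.40 ± 0.26 and 0.24 ± 0.26. The dimmer second probe set of Plod1 gave 0.10 and 0.24.

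**Figure D1:**
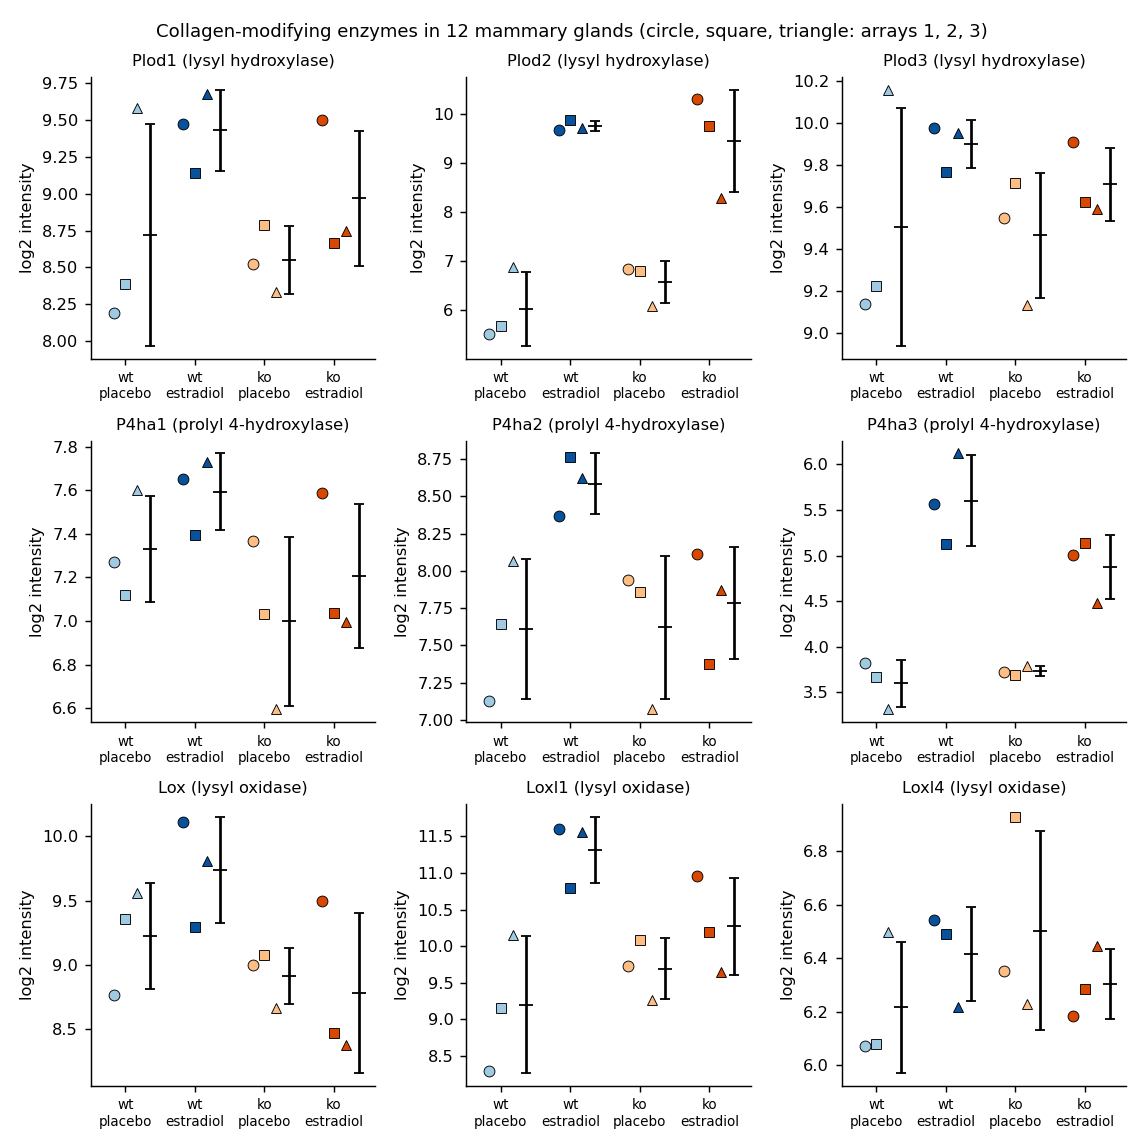
Log2 intensity of each of the 9 measured enzymes (1 panel each, with its own axis that does not start at 0) in the 4 groups; symbols are single arrays and the bar is the group mean ± SD (n = 3). Plod2 lies between 5.51 and 6.89 on all 6 placebo arrays and between 8.30 and 10.31 on all 6 estradiol arrays, and wildtype placebo array 3 (triangle) is the highest of its group in 8 of 9 panels.

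Of the prolyl 4-hydroxylase subunits, P4ha3 was low on placebo and rose with estradiol in wildtype mice. Its values were 3.82, 3.66 and 3.31 on placebo and 5.57, 5.13 and 6.12 on estradiol in wildtype mice. In knockout mice they were 3.72, 3.69 and 3.79 against 5.01, 5.14 and 4.48. Estradiol arrays were above placebo arrays in both genotypes without overlap. All 6 placebo values were below their array's lower quartile (4.15 to 4.29 over the arrays), so the size of the difference is inexact. The difference was 2.00 ± 0.25 in wildtype and 1.14 ± 0.25 in knockout mice, and the knockout difference missed the threshold (limma, adjusted p = 0.230). The wildtype call was lost when only the 6 wildtype arrays were fitted.

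P4ha2 was at 7.13, 7.64 and 8.06 on placebo and 8.37, 8.77 and 8.62 on estradiol in wildtype mice, which did not overlap. In knockout mice it was at 7.94, 7.86 and 7.07 against 8.12, 7.38 and 7.87, which did. Its differences were 0.97 ± 0.30 in wildtype and 0.17 ± 0.30 in knockout mice. P4ha1, the most widely expressed alpha subunit, ranged from 6.59 to 7.73 over the 12 arrays. Its placebo and estradiol groups overlapped in both genotypes, with differences of 0.26 ± 0.23 and 0.21 ± 0.23.

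Loxl1, which crosslinks elastin, differed most among the measured lysyl oxidases in wildtype mice. In wildtype mice it was at 8.29, 9.14 and 10.16 on placebo and 11.60, 10.80 and 11.56 on estradiol. In knockout mice it was at 9.73, 10.09 and 9.26 against 10.96, 10.20 and 9.65. The wildtype groups were apart, while knockout estradiol array 3 lay below 2 of the knockout placebo arrays. The wildtype difference was 2.12 ± 0.48 and its second probe set gave 2.00. The knockout difference was 0.58 ± 0.48 (95% interval -0.48 to 1.64).

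Lox, the founding lysyl oxidase, was at 8.77, 9.36 and 9.56 on placebo and 10.11, 9.29 and 9.81 on estradiol in wildtype mice. In knockout mice it was at 9.00, 9.08 and 8.66 against 9.49, 8.47 and 8.38, where 2 estradiol arrays were the lowest. Its differences were 0.51 ± 0.33 and -0.13 ± 0.33. Loxl4 stayed between 6.07 and 6.93 on all 12 arrays, with differences of 0.20 ± 0.19 and -0.20 ± 0.19. A second Lox probe set gave 0.56 in wildtype and 0.05 in knockout mice. Another Lox probe set, which lay below the lower quartile on all 12 arrays, carries no information on the Lox differences.

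Counted together in wildtype mice, 2 of 9 measured members, Plod2 and P4ha3, passed the adjusted threshold, where 1.88% of all genes did. The estradiol and placebo arrays did not overlap for 4 of 9, Plod2, P4ha2, P4ha3 and Loxl1, all with estradiol higher; over all genes 17% did not overlap and 11.9% had all estradiol arrays higher. The list was drawn from this contrast, so these counts describe the choice. The 9 differences were all above 0 with a median of 0.71, against a median of 0.01 over all genes. Without wildtype placebo array 3, 5 members were called (Plod1, Plod2, Plod3, P4ha3 and Loxl1), and P4ha2 joined them when knockout placebo array 2 was left out as well; over all genes 6.3% and 11.8% were then called in place of 1.88%. Leaving out wildtype placebo array 3 also widened the treatments' gap in lymphocyte markers in wildtype mice, from a median of -2.09 to -3.56. As deviations from group means over 12 arrays, Plod1, Plod3, Loxl1 and P4ha2 correlated with the lymphocyte marker mean at -0.90, -0.83, -0.84 and -0.56. With the adipocyte marker mean the values were 0.90, 0.92, 0.86 and 0.61 in the same order. With the endothelial marker mean they were 0.89, 0.86, 0.89 and 0.76. The part of any of these cells in the added calls was not tested.

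In knockout mice 0 of 9 members were called by limma after adjustment, where 0.0989% of all genes were. The rise that selected the list was measured on wildtype arrays only, but the members were chosen with earlier results of these data known. At an unadjusted p under 0.05 there were 2 members, Plod2 and P4ha3, and 8.32% of all genes. The same 2 members did not overlap between estradiol and placebo, against 13.5% of all genes. Of the 9 differences, 7 were above 0 and the median was 0.24, against 0.01 over all genes. Without knockout placebo array 2 the median was 0.37, with 8 above 0 and 0 called. Leaving that array out also widened the treatments' gap in lymphocyte markers in knockout mice, from a median of -0.80 to -2.18.

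**Figure D2:**
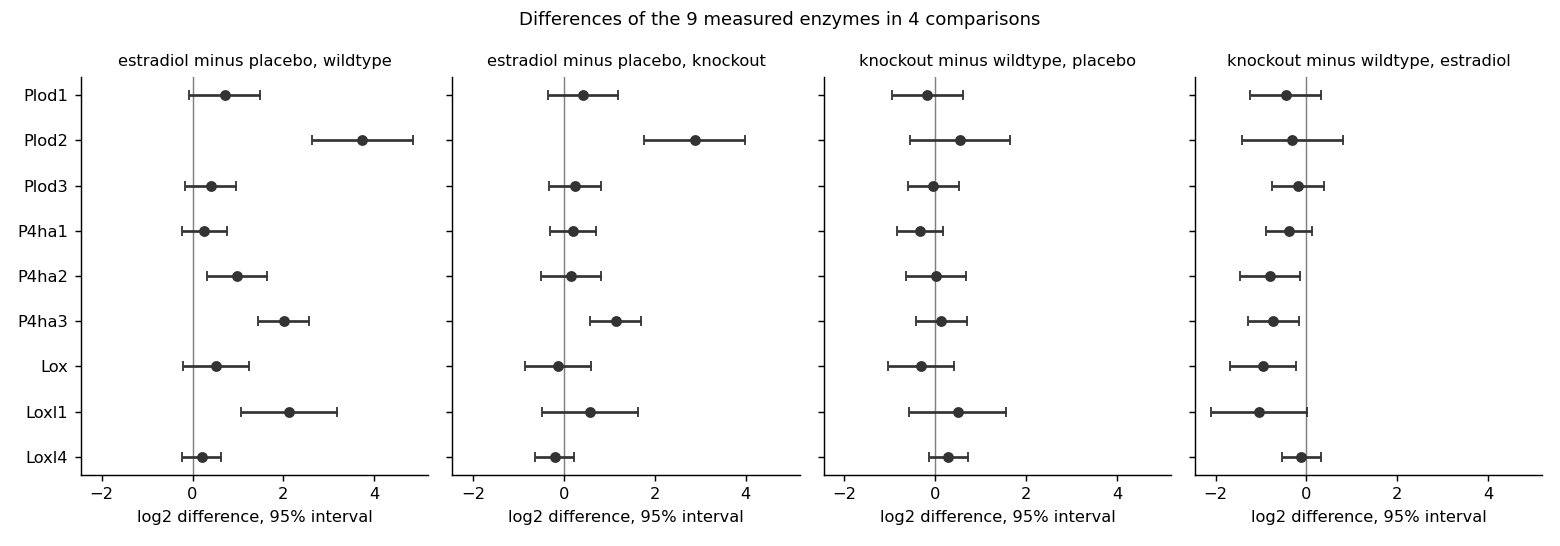
Differences in log2 intensity of the 9 enzymes in 4 comparisons, as points with 95% intervals from limma (3 arrays against 3). Plod2 and P4ha3 have intervals above 0 under estradiol in both genotypes, and under estradiol all 9 points for knockout minus wildtype are below 0, with no member past the adjusted threshold.

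Levels were also compared between genotypes within each treatment. These comparisons do not test whether the estradiol response differs between genotypes, for which the interaction is given further below. On placebo, 0 of 9 members and 0% of all genes were called by limma, 0 members at an unadjusted p under 0.05, and the groups overlapped for every measured member, where 6.71% of all genes did not. The differences, knockout minus wildtype, ran from -0.33 for P4ha1 to 0.55 for Plod2, whose interval of -0.55 to 1.66 was wide.

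On estradiol, all 9 members were lower in the knockout mean than in the wildtype mean, with a median difference of -0.46, while 55.2% of all genes were higher. The dimmer second probe set of Plod1, which did not stand for the gene, went the other way, at 0.25. The wildtype estradiol arrays used here are those on which the list was selected, so the members' common direction is partly set by the choice. None passed the adjusted threshold, where 1.12% of all genes did, and 3 members, against 13.5% of all genes, had an unadjusted p under 0.05. The smallest adjusted p among them was 0.232 (limma), for Lox at -0.96 ± 0.33. P4ha2 differed by -0.80 ± 0.30 and was the 1 member whose knockout arrays were all below the wildtype arrays, against 22.3% of all genes that did not overlap. Loxl1 differed by -1.05 ± 0.48 and P4ha3 by -0.73 ± 0.25. For Plod2 the difference was -0.31 with an interval of -1.41 to 0.79, which leaves both a lower and a higher level within the interval.

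The test of the response itself, knockout response minus wildtype response, called 0 of 9 members and 0.011% of all genes. All 9 values were below 0, with a median of -0.64, while the dimmer second probe set of Plod1 gave 0.14. Since the wildtype response chose the list, the members' common direction is partly set by the choice. At an unadjusted p under 0.05 there were 6.43% of all genes and 2 members, P4ha3 at -0.87 ± 0.36 (limma, adjusted p = 0.727) and Loxl1 at -1.54 ± 0.67 (limma, adjusted p = 0.767). Plod2 gave -0.86 with an interval of -2.42 to 0.70.

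Within groups, members tended to be high or low on the same arrays. Wildtype placebo array 3 held the highest value of its group for 8 of 9 members, knockout placebo array 3 the lowest for 8, and knockout estradiol array 1 the highest for 7. P4ha3 was an exception in each of these, and for the last Loxl4 as well. As deviations from the group mean over 12 arrays, Plod1 and Plod3 correlated at 0.93, Lox and Loxl1 at 0.89 and Plod2 and Loxl1 at 0.80, while P4ha3 correlated at -0.41 with P4ha2 and at 0.09 with Plod2. The points share arrays and tissue makeup, so these are descriptions.

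The genes that work beside the enzymes were read from lists. Of 15 measured collagen folding partners in the endoplasmic reticulum, 14 had a higher mean on estradiol in wildtype mice. Of these 15, 8 had an unadjusted p under 0.05, against 13.5% of all genes. After adjustment 1 was called, against 1.88% of all genes. It was P4hb, the beta subunit of prolyl 4-hydroxylase, at 0.54 ± 0.11 (limma, adjusted p = 0.0446). P4hb was not called without knockout placebo array 2. In knockout mice 0 of 15 were called and 1 had an unadjusted p under 0.05, against 0.0989% and 8.32% of all genes. The list's median was 0.07 there, beside 0.36 in wildtype mice. P3h2, a prolyl 3-hydroxylase, was lower in knockout than in wildtype glands on estradiol, with a difference of -0.71 ± 0.13 (limma, adjusted p = 0.0336). In that comparison 1.12% of all genes were called. Of 12 measured genes that act on procollagen and fibres outside the cell, 4 had an unadjusted p under 0.05 for estradiol in wildtype mice. After adjustment 1 was called higher, Tgm2, a transglutaminase that crosslinks matrix proteins, at 1.01 ± 0.13 (limma, adjusted p = 0.00522). In knockout mice 0 of 12 were called, 1 at an unadjusted p under 0.05, and 10 of 12 differences were below 0.

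The substrates are 16 collagen chains and elastin. All 17 had a higher mean on estradiol in wildtype mice, with a median difference of 1.03. After adjustment 1 was called, Col18a1, a basement membrane collagen, at 1.83 ± 0.39 (limma, adjusted p = 0.0465), where 1.88% of all genes were. At an unadjusted p under 0.05 there were 12 of 17, and 12 of 17 did not overlap, against 13.5% and 17% of all genes. In knockout mice 0 of 17 were called, 1 had an unadjusted p under 0.05 and 0 did not overlap. Over all genes these shares were 0.0989%, 8.32% and 13.5%. Of the knockout differences, 12 of 17 were below 0 and the median was -0.23 (-0.10 without knockout placebo array 2). In that comparison the substrates ran from -0.78 to 0.40, beside 2.88 for Plod2; that gap was not tested. On placebo all 17 means were higher in knockout mice (median 0.48), and on estradiol 16 of 17 were lower (median -0.78), with 0 called by limma in either; 0 and 11 had an unadjusted p under 0.05, against 2.03% and 13.5% of all genes. The placebo median was 0.85 without wildtype placebo array 3 and 0.24, with 15 of 17 above 0, without knockout placebo array 2. Without both, 2 substrates were called lower in knockout mice on estradiol, Col15a1 and Col18a1, where 2.59% of all genes were called. Without wildtype placebo array 3, 7 substrates, 6 folding partners and 3 processing genes were called higher on estradiol in wildtype mice, and without both lymphocyte-poor placebo arrays 10, 8 and 3, beside the 6.3% and 11.8% of all genes called under those settings. Their wildtype medians were then 1.46, 0.58 and 0.82.

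**Figure D3:**
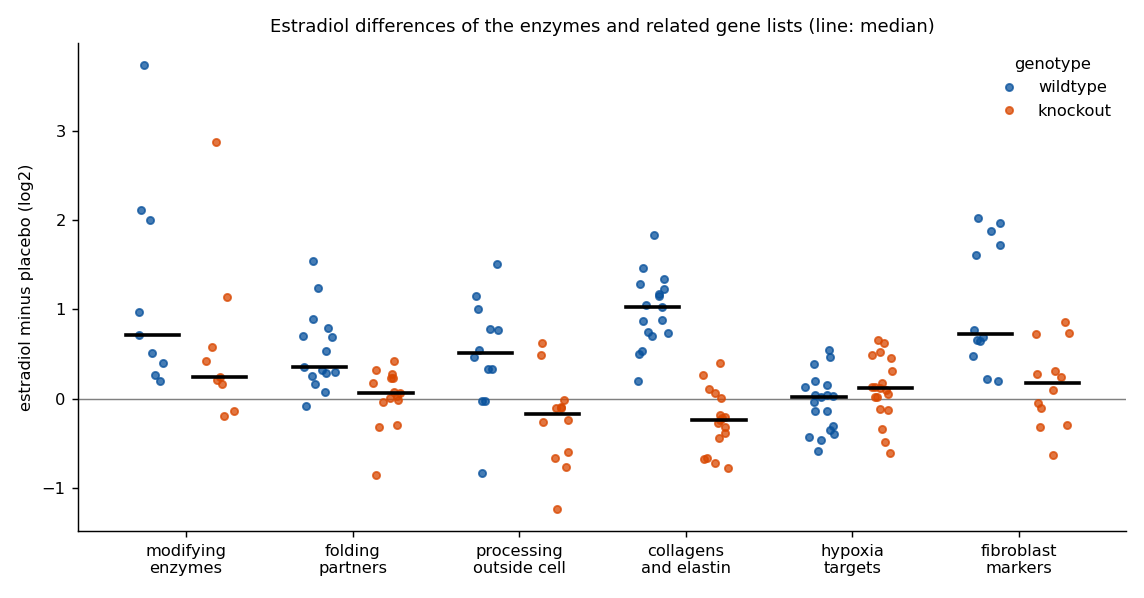
Estradiol minus placebo difference in log2 intensity for each gene of 6 lists in wildtype (blue) and knockout (orange) mice, with the list median as a line. The collagens and elastin have a median of 1.03 in wildtype and -0.23 in knockout mice, and hypoxia targets have medians of 0.02 and 0.12.

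Hypoxia targets were examined because Plod2 and the prolyl 4-hydroxylases belong to that response. None of 19 measured targets outside the enzyme list was called by limma in any of the 5 comparisons. At an unadjusted p under 0.05 there were 4 for estradiol in wildtype, 2 for estradiol in knockout, 1 for genotype on placebo, 3 for genotype on estradiol and 3 for the interaction. The shares over all genes were 13.5%, 8.32%, 2.03%, 13.5% and 6.43% in the same order. The medians under estradiol were 0.02 in wildtype and 0.12 in knockout mice. In knockout mice the smallest p belonged to Ldha, a glycolytic enzyme, at 0.66 ± 0.22 (limma, adjusted p = 0.477) and to Adm, a vasodilator peptide, at -0.60 ± 0.25 (limma, adjusted p = 0.557). Without wildtype placebo array 3, and without both arrays, 1 of 19, Mxi1, was called higher on estradiol in wildtype mice and lower in knockout than in wildtype mice on estradiol. Over all genes 6.3% and 11.8% were then called in the first comparison and 1.73% and 2.59% in the second. Of 7 oxygen-sensing genes 0 were called in any comparison with all arrays, 1 at an unadjusted p under 0.05, for genotype on estradiol. Without both arrays 1 was called lower there, Hif1a. Mxi1 and Hif1a are named after their values were seen. In knockout mice Epas1, a hypoxia-inducible factor, was at -0.19 ± 0.12 and Vhl, which marks these factors for breakdown, at -0.30 ± 0.25.

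Markers of the cells in the gland moved with some of these values. All 12 fibroblast markers were measured and none lay under the lower quartile on every array of a group. Their summed log2 intensity was 120.6 to 128.5 on wildtype placebo, 134.8 to 139.8 on wildtype estradiol, 123.1 to 130.3 on knockout placebo and 123.6 to 131.0 on knockout estradiol. The wildtype estradiol arrays were thus above all others, and 2 of 12 markers were called there, Pdgfra at 1.72 ± 0.22 and Fap at 1.61 ± 0.30 (limma, adjusted p = 0.00486 and 0.0291). Without wildtype placebo array 3, 6 fibroblast markers were called and their median went from 0.73 to 1.29, and without both arrays 8 were called. Over all genes 1.88% were called with all arrays, and 6.3% and 11.8% under those settings. The knockout groups overlapped in the sum, while Plod2 did not overlap between them. As deviations from group means, Loxl1 correlated with the fibroblast marker mean at 0.92, Plod2 at 0.80 and P4ha3 at 0.14 over 12 arrays. High values were not limited to fibroblast markers. Loxl1 correlated with the endothelial and adipocyte marker means at 0.89 and 0.86. For Plod2 these were 0.58 and 0.59, and for P4ha3 -0.27 and -0.12. Plod1 gave 0.75 with fibroblast, 0.89 with endothelial and 0.90 with adipocyte markers.

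Of 12 basal epithelial markers, 4 rose under estradiol in wildtype mice (Acta2, Cnn1, Oxtr and Tagln) and 4 were lower in knockout than in wildtype mice on estradiol (Acta2, Cnn1, Tagln and Itgb4). Without wildtype placebo array 3 these counts were 8 and 6, and without both arrays 9 and 6. Over all genes, the share called for estradiol in wildtype mice went from 1.88% to 6.3% and 11.8% in the same order. For genotype on estradiol it went from 1.12% to 1.73% and 2.59%. Under estradiol in knockout mice 0 basal markers were called and 2 had an unadjusted p under 0.05, against 0.0989% and 8.32% of all genes. There 9 of 12 differences were below 0, and the range was -0.72 to 3.85. Oxtr was called higher in knockout mice without wildtype placebo array 3 and without both arrays, where 0.137% and 0.275% of all genes were called. The basal markers' summed log2 intensity was 83.9 to 94.1 on wildtype placebo and 100.9 to 108.2 on wildtype estradiol. It was 87.1 to 91.3 on knockout placebo and 89.8 to 91.1 on knockout estradiol. Of 11 luminal markers, 5 were lower in knockout than in wildtype mice on estradiol (Krt19, Krt7, Cdh1, Cldn4 and Elf5), with sums of 56.0 to 67.4 against 89.8 to 108.0. On placebo the sums were 56.6 to 78.3 in knockout and 74.97 to 82.43 in wildtype mice, 10 of 11 differences were below 0 with a median of -1.36, 0 were called by limma and 3 had an unadjusted p under 0.05. Under estradiol in wildtype mice 0 luminal markers were called, 8 at an unadjusted p under 0.05, and 2 without wildtype placebo array 3, Krt7 and Cldn4. Of 10 macrophage markers, 3 rose in wildtype mice (Cd14, Fcgr1 and Fcgr3), with sums of 85.8 to 87.8 on placebo and 95.5 to 107.5 on estradiol. Without wildtype placebo array 3, 4 were called, beside 6.3% of all genes. Without knockout placebo array 2, 2 were called, beside 2.12% of all genes. In knockout mice the sums were 87.0 to 88.1 and 89.5 to 93.2, with 0 called and 1 at an unadjusted p under 0.05.

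All 10 lymphocyte markers were lower on estradiol than on placebo in both genotypes, with medians of -2.09 in wildtype and -0.80 in knockout mice. By limma 0 were called, also 0 at an unadjusted p under 0.05. Without both lymphocyte-poor placebo arrays 1 was called in wildtype mice, Pax5, beside 11.8% of all genes. The lymphocyte sums overlapped between treatments. They were 50.7 to 98.1 and 48.4 to 82.1 in wildtype mice and 52.0 to 94.4 and 48.9 to 89.9 in knockout mice. All 10 muscle markers were lower in knockout than in wildtype mice on placebo (median -3.17), with sums of 47.7 to 106.8 against 72.8 to 120.3, and again 0 were called, 0 at an unadjusted p under 0.05. As deviations from group means, the members correlated with the muscle marker mean at 0.01 for Plod3 to 0.45 for Lox. The part of the cell type markers in the enzyme values was not tested.

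The genes most like Plod2 over the 12 arrays, by Pearson correlation among 18184 genes outside the list, were Lrg1, a secreted glycoprotein (0.97), Chst13, a chondroitin sulfotransferase (0.97), Socs2, an inhibitor of cytokine signalling (0.97), Hsd11b2, which inactivates glucocorticoids (0.96), and Prps1, an enzyme of nucleotide synthesis (0.96). Within each genotype, every estradiol array lay above every placebo array for Plod2 and for each of these 5 genes. The correlations therefore largely restate the difference between treatments. As deviations from group means they were 0.68, 0.75, 0.60, 0.65 and 0.90. Lrg1 averaged 10.40 ± 0.29 on placebo and 13.02 ± 0.19 on estradiol in wildtype mice and 10.69 ± 0.39 and 12.97 ± 0.21 in knockout mice (SD, n = 3). All 5 had higher group means on estradiol than on placebo in both genotypes.

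**Figure D4:**
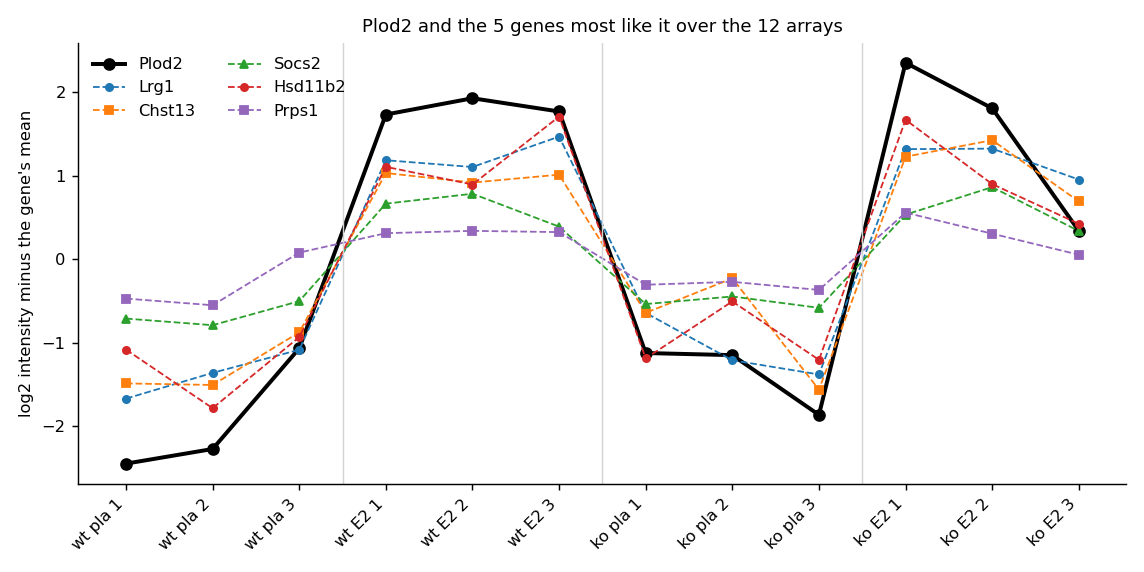
Log2 intensity minus the gene's own mean for Plod2 (black) and the 5 genes most like it, on each of the 12 arrays (wt wildtype, ko knockout, pla placebo, E2 estradiol); lines join the points of a gene only to guide the eye. Knockout estradiol array 3 is the lowest estradiol array for Plod2, at 8.30, and for Lrg1, at 12.7.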

How the data were processed

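Log2 intensities of 12 Affymetrix arrays were used as deposited. The submitters' processing notes name RMA, a method that corrects background, normalizes quantiles and summarizes probes, and limma 2.9.16. RNA was extracted with Trizol and labelled with biotin, per the labels' protocols. Scan dates and batches are not given in the sources used here.

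Probe sets were named from GEO's platform annotation. Of 45101, 34945 had 1 gene, 932 several, 9160 none and 64 were controls; 18145 of the 18193 genes matched RefSeq. The brightest probe set stood for each of 9010 genes with several. No array was a duplicate of another. limma 3.58.1 (R 4.3.3) was fitted to all 12 arrays with 4 group means (8 residual and 2.15 prior degrees of freedom), two-sided, with Benjamini-Hochberg adjustment over all genes and a threshold of 0.05, for 5 comparisons. Array number limits precision, and p-values measure the spread between animals. The script was tested on simulated data.

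The members and lists were chosen with earlier results of these data known. Text names all members, Ccnd1, called genes of 5 pathway lists (or, where a list had none, the 2 with the smallest p in knockout mice), and the 5 genes most like Plod2. Marker lists covered fibroblasts, basal and luminal epithelium, adipocytes, lymphocytes, macrophages, muscle and endothelium. Alternatives changed the probe set rule, a filter on dim genes, normalization, centring, priors, array weights, the replicate block, the arrays fitted and single arrays. Leaving arrays out of the pathway and marker lists was added after seeing the data.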

Additional observations from a re-analysis of the deposited data

How the results depend on the processing

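In 22 alternatives (21 for the interaction), 936 of 976 recomputed member values kept direction and side of the threshold. The estimation of the array weights stopped before it converged, so values given with array weights are unsure. The wildtype count of 2 called members was 1 without the dimmest 40% of genes, which drops P4ha3, 1 in a fit of the 6 arrays concerned, 6 with array weights, 6 without both lymphocyte-poor placebo arrays, and 2 to 5 when single arrays were left out, with 5 without wildtype placebo array 3. The knockout count of 0 was 1 with array weights and 0 to 1 when single arrays were left out; that member was Plod2, whose adjusted p (limma) ranged from 0.0151 to 0.419 over the alternatives. In genotype and interaction tests 0 members were called under every alternative run. Counts over all genes moved more: 342 in wildtype became 71 in the fit of 6 arrays, 4702 with array weights and 100 to 1146 without single arrays, the last without wildtype placebo array 3; 18 in knockout became 5, 73 and 10 to 25, and 50 without both lymphocyte-poor arrays; 204 for genotype on estradiol became 47, 428 and 0 (without knockout estradiol array 3) to 315, 119 without dim genes and 472 without both arrays; 2 for the interaction became 84 with array weights and 0 to 18 without single arrays.

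Signs turned only for small differences, and the cause was not tested. With array weights Loxl4 in knockout was 0.0023, and on placebo the genotype difference was 0.014 for Plod1, 0.053 for Plod3 and -0.21 for P4ha2. Without both lymphocyte-poor arrays these were 0.014 for Loxl4, 0.14 for Plod1 and 0.16 for Plod3, and quantile normalization gave 0.0033 for Plod3. Leaving out single arrays gave, in knockout, -0.11 to 0.37 for P4ha2, -0.49 to 0.068 for Lox and -0.33 to 0.014 for Loxl4. For genotype on placebo it gave -0.43 to 0.26 for Plod1, -0.22 to 0.29 for Plod3, -0.23 to 0.29 for P4ha2 and -0.0089 to 0.25 for P4ha3. For genotype on estradiol it gave -0.74 to 0.27 for Plod2, and for the interaction -0.48 to 0.032 for Plod3 and -0.26 to 0.13 for P4ha1.

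Replicate numbers are shared by the groups. Over 18 same-numbered pairs of arrays the correlation of deviations ran from -0.74 to 0.66 and 7 exceeded 0.1. These correlations also carry the arrays' differences in lymphocyte and muscle markers, so they cannot settle whether the numbers pair the mice. With the replicate number as a block, 2 members were called in wildtype and 0 in knockout mice, and 158 and 10 genes in all, 45 for genotype on estradiol and 0 for the interaction. Signal over background limits P4ha3 on placebo most.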

Other observations

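Adipocyte markers, the bulk of a mammary fat pad, had medians under estradiol of 0.06 in wildtype and 0.05 in knockout mice over 8 measured markers. With all arrays 0 were called by limma in the 5 comparisons, and 1 had an unadjusted p under 0.05, for genotype on estradiol. Without wildtype placebo array 3 the wildtype median was 0.32, with 7 of 8 above 0 and 1 called, Cidec, and without both lymphocyte-poor placebo arrays 3 were called higher, Lipe, Cidec and Pparg. Over all genes 6.3% and 11.8% were called under those settings. Of 10 endothelial and mural markers, 1 was called lower under estradiol in wildtype mice, Rgs5, where 1.88% of all genes were called. The list's median was -0.23. Without wildtype placebo array 3 the median was 0.11. Without both lymphocyte-poor placebo arrays it was also 0.11, with Emcn called higher and Rgs5 lower. In knockout mice 0 were called and 1 had an unadjusted p under 0.05, against 0.0989% and 8.32% of all genes.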
